A study of Mus musculus with 19 samples.

Results

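The 9 genes described here, Trem2, Tyrobp, Spp1, Gpnmb, Cd9, Cd63, Lgals3, Lipa and Acp5, are markers of lipid-associated macrophages, and were chosen by their symbols among the 24237 genes with values in epididymal white adipose tissue (eWAT). Male C57Bl6/J mice were fed 1 of 4 diets for 17 weeks from an age of 9 to 10 weeks. RNA from unsorted eWAT was sequenced with 1 library per mouse. Diets low in Mg2+ contained 0.03% MgO by weight and those normal in Mg2+ 0.21%. Palm oil fat supplied 10% of the energy in the LFD and 60% in the HFD. The groups were NormMg-LFD (n = 4, replicates 2 to 5), LowMg-LFD (n = 5), NormMg-HFD (n = 5) and LowMg-HFD (n = 5). The study set aside 1 LowMg-HFD mouse for pancreatic tissue in the sample, and the labels do not say which, so that all 19 mice were used here and each was also left out in turn.

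In obese fat, macrophages gather around dying adipocytes and take up the lipid that these release. The lipid-associated state of these cells depends on TREM2, a surface receptor that binds lipids and signals through its adaptor TYROBP, and it is marked by lysosomal, lipid-handling and cell surface genes. Several of the 9 genes are not restricted to it: tetraspanins are made by many cells, osteopontin (Spp1) is also made by epithelia, and Acp5 is best known as the tartrate-resistant acid phosphatase of osteoclasts.

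Expression was read as FPKM, fragments scaled to transcript length and to the mapped reads of the library, with 12986441 to 13027028 reads per mouse and 86.12% to 90.41% of them mapped. The adipocyte markers Adipoq, Plin1, Cidec, Lep, Pparg, Lipe and Cfd were all above 0 in every mouse, with a summed level of 4788 to 16025 FPKM. Epithelial markers (Epcam, Krt8, Krt18 and Cdh1) stood apart in 3 mice, at a summed 97.7 FPKM in NormMg-LFD replicate 4, 93.2 FPKM in LowMg-HFD replicate 4 and 81.5 FPKM in LowMg-LFD replicate 4, against 1.24 to 35.4 FPKM in the others. Markers of exocrine pancreas summed to 1508 FPKM in NormMg-LFD replicate 3 and to 12.3 to 52.4 FPKM in all other mice, LowMg-HFD mice included. The comparisons of the HFD groups are also given without the 3 mice high in epithelial markers.

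The differences below are differences of log2(FPKM + 1) between group means, fitted in limma over the 8336 genes that passed a filter on low values, with p values adjusted by the Benjamini-Hochberg method over those genes and a threshold of 0.05. This scale understates the change of genes with few FPKM. All 9 genes passed the filter, 6 of them in every group, Trem2 and Gpnmb through the HFD groups alone and Spp1 through the NormMg-HFD group alone, so that these 3 had to be high in those groups to be tested. A gene that passed only through the group or groups on the high side of a comparison is left out of the counts of calls in that comparison, and its p value is taken from the same fit with no filter, in which all 24237 genes were tested whatever their level. Because whole tissue was sequenced, fewer macrophages and less RNA per macrophage cannot be told apart.

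In mice on the HFD, low Mg2+ went with lower expression of 7 of the 8 genes other than Spp1, and with higher expression of Acp5. Compared with NormMg-HFD mice, LowMg-HFD mice had 5.01-fold lower Gpnmb and 4.12-fold lower Trem2, and the smallest fall was that of Cd63, at 1.66-fold. Among all genes tested, 18.5% passed the threshold in this comparison, 12.9% lower and 5.58% higher in LowMg-HFD mice. With no filter, 8 of the 9 genes were lower, Spp1 included (largest adjusted p = 0.0384, limma), where 3.85% of the 24237 genes were lower, and Acp5 did not pass. The median difference over the 8 genes other than Spp1, Acp5 included, was -1.42, and that over all genes tested was -0.04. The values of the groups did not overlap in 6 of these 8 genes, against 12.8% of all genes tested. The balance of all calls depended on scaling, since 69.8% of them were lower in the FPKM as given, 56.7% after the median of every mouse was set equal and 52.8% after quantile normalization, while the difference of each of the 9 genes kept its direction under both. Without the 3 mice high in epithelial markers the 8 genes passed, and Gpnmb moved most, to -1.92, with Trem2 at -1.81, Lgals3 at -1.59, Tyrobp at -1.26, Lipa at -1.20 and Cd63 at -0.70 (largest adjusted p = 0.0252, limma).

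**Figure D1:**
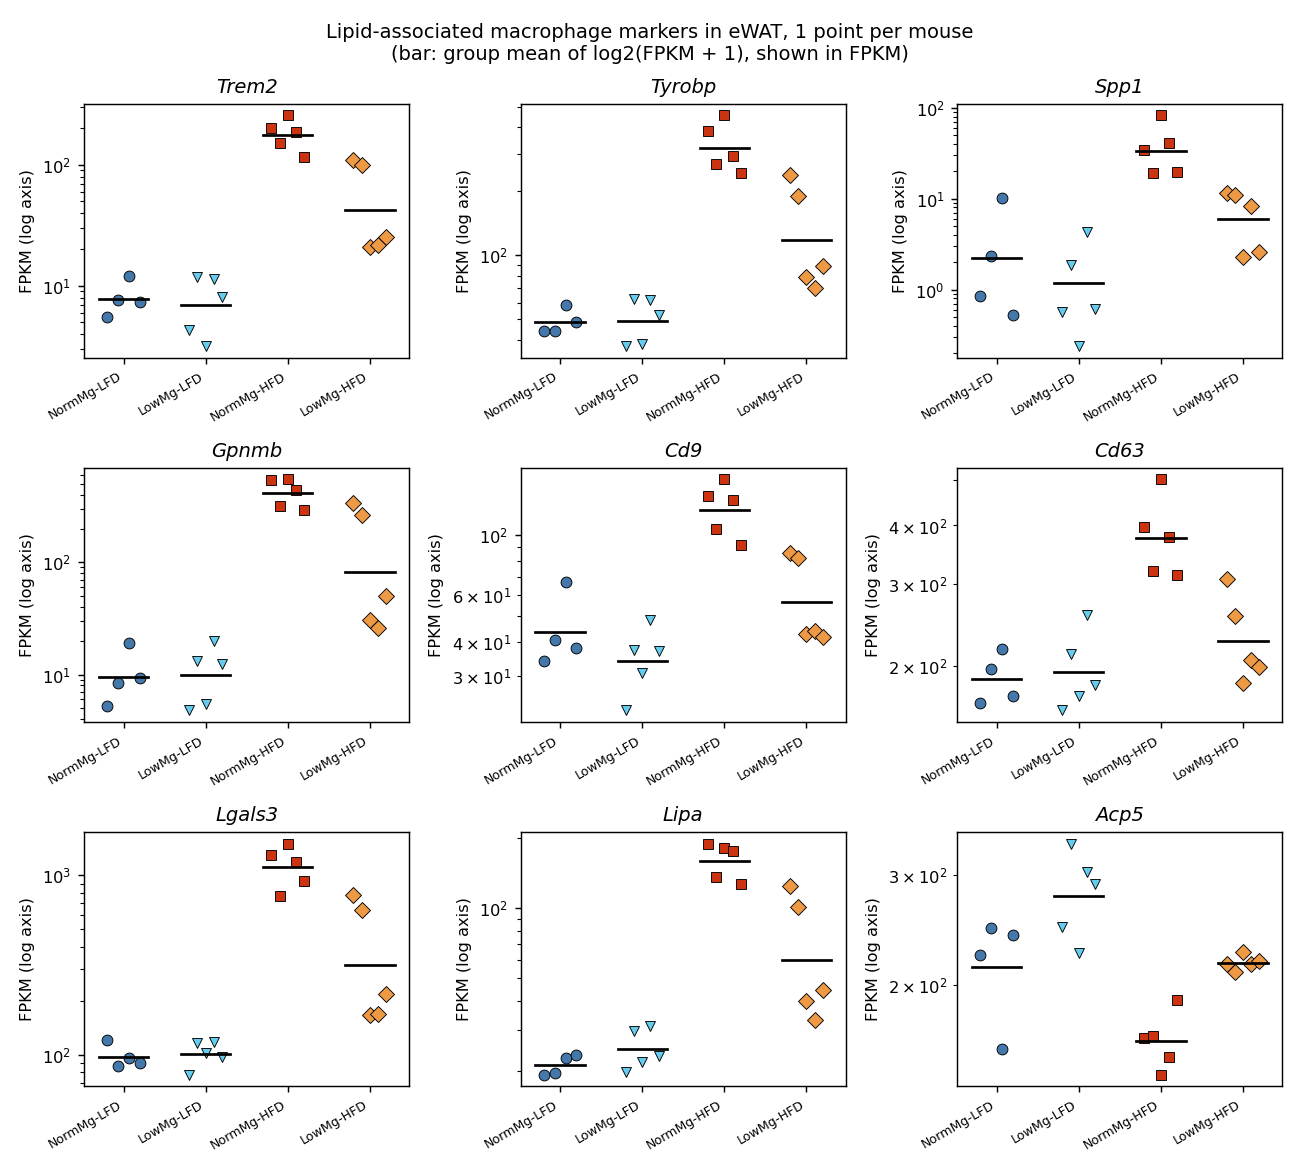
FPKM (log axis) of the 9 genes in each of the 19 mice, by diet group, with 1 point per mouse and a bar at the group mean of log2(FPKM + 1) turned back into FPKM. In 8 genes the NormMg-HFD mice lie highest, apart from LowMg-HFD replicate 1, which lies within their range in Gpnmb and Lgals3. Of the LowMg-HFD mice 2 lie nearest to them, with Trem2 at 110.1 and 99.4 FPKM, and the 3 others lie lower. In Spp1 a further LowMg-HFD mouse, at 8.26 FPKM, lies close to these 2. In Acp5 the NormMg-HFD mice lie lowest, apart from NormMg-LFD replicate 4 at 158 FPKM.

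Trem2 and Tyrobp encode the receptor and the adaptor that carries its signal. Trem2 (chr17:48346401-48354147, plus strand, GRCm38) was at 202, 151, 257, 188 and 115 FPKM in the NormMg-HFD mice and at 110.1, 99.4, 21.1, 21.7 and 25.3 FPKM in the LowMg-HFD mice. Every LowMg-HFD mouse lay below every NormMg-HFD mouse, and replicates 1 and 2 lay close to the lowest NormMg-HFD mouse while replicates 3, 4 and 5 did not. On the LFD it was at 5.55, 7.69, 12.0 and 7.39 FPKM with normal and at 4.34, 11.9, 3.19, 11.5 and 8.04 FPKM with low Mg2+, and these groups overlapped. The difference between the HFD groups was -2.04 ± 0.44 (SE; adjusted p = 0.00439, limma), although the LowMg-HFD mice spread widely.

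Tyrobp (chr7:30413760-30417585, plus strand) followed the same order at a higher level. It was at 385, 269.6, 457, 295 and 245 FPKM in the NormMg-HFD mice and at 239, 190.2, 78.9, 70.3 and 89.2 FPKM in the LowMg-HFD mice, and the groups did not overlap. In the LFD mice it ranged from 43.9 to 58.4 FPKM with normal and from 37.5 to 62.4 FPKM with low Mg2+. The difference between the HFD groups was -1.44 ± 0.28 (SE; adjusted p = 0.00296, limma), so that receptor and adaptor both fell. The difference between their falls was not tested.

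Since most of the 9 genes moved together across the mice, the DNA just before their transcription starts is shown for 4 of them: the receptor Trem2, Spp1 and Gpnmb with the largest differences, and Acp5, which moved the other way. The sequences are the 250 bases before a RefSeq transcription start on GRCm38.p6, 5′ to 3′ on the strand of the gene. RefSeq entries were at hand for 8 of the 9 genes, all but Tyrobp. Capitals mark 3 motifs searched on both strands. They were TCANGTG, modelled on the M-box bound by MiT/TFE factors, TGANTCA, modelled on the AP-1 site, and GAGGAAG, the core of a PU.1 site. N is any base, A in the AP-1 match of Trem2 and G in the M-box match of Lgals3. A match thus need not be the full consensus site. The 3 motifs occur in 12.2%, 6.75% and 10.6% of 32851 promoter windows of this length.
Trem2, chr17:48346151-48346400, plus strand: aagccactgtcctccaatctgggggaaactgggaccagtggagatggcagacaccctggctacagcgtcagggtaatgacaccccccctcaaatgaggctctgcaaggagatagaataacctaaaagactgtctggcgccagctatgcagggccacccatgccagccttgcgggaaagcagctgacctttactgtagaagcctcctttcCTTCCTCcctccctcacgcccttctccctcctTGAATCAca
Spp1, first start, chr5:104434861-104435110, plus strand: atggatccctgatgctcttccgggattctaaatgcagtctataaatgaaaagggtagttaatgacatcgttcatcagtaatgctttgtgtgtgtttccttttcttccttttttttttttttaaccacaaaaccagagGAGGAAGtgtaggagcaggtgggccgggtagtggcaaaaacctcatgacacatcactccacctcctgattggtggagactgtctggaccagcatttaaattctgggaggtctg
Gpnmb, chr6:49036268-49036517, plus strand: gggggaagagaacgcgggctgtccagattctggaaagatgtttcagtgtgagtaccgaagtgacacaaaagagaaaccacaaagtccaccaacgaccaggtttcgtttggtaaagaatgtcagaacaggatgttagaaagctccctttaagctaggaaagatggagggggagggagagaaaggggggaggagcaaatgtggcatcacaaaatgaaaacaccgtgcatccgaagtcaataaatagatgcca
Acp5, chr9:22130599-22130848, minus strand: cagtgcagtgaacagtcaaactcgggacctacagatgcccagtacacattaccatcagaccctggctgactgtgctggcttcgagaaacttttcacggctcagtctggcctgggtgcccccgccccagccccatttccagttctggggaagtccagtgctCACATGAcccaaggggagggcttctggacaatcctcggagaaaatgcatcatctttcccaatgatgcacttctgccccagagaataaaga
The Trem2 window holds a PU.1 match 41 bases and an AP-1 match 9 bases before the start. A PU.1 match lies 113 bases before the first start of Spp1, and the Gpnmb window holds none of the 3 motifs. No 2 matches overlap. In Acp5 the window shown, before a start that lies within the longer transcripts of the gene, holds an M-box match 90 bases upstream. The windows before starts 1 and 2 of Acp5 and before start 2 of Spp1, not printed, hold none of the 3 motifs. Of the genes not printed, Cd63 and Lipa have a PU.1 match, Lgals3 an M-box match and Cd9 none. These matches describe the sequence only, and binding was not measured.

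Spp1, Gpnmb and Lgals3 encode osteopontin, a secreted phosphoprotein that binds integrins and CD44, a transmembrane glycoprotein found at lysosomes, and galectin-3, a lectin that binds β-galactosides. Spp1 (chr5:104435118-104441050, plus strand) was at 34.4, 19.1, 82.8, 40.8 and 19.5 FPKM in the NormMg-HFD mice and at 11.6, 11.1, 2.26, 8.26 and 2.58 FPKM in the LowMg-HFD mice, and the groups did not overlap. It was at 0.86, 2.37, 10.2 and 0.53 FPKM in the NormMg-LFD mice and at 0.57, 1.86, 0.24, 4.35 and 0.62 FPKM in the LowMg-LFD mice. The highest mouse of each LFD group was replicate 4, the mouse with high epithelial markers, and LowMg-HFD replicate 4, at 8.26 FPKM, lay apart from replicates 3 and 5 at 2.26 and 2.58 FPKM. Because Spp1 passed the filter through the NormMg-HFD mice alone, a lower level in LowMg-HFD mice was favoured by that choice, and its difference between the HFD groups was taken with no filter, at -2.32 ± 0.59 (SE; adjusted p = 0.0282, limma). Without the 3 mice high in epithelial markers it was -2.42.

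Gpnmb (chr6:49036546-49070929, plus strand) spanned the widest range of the 9 genes on the log2 scale between the HFD and LFD mice. It was at 542, 319, 548, 445 and 294 FPKM in the NormMg-HFD mice and at 339, 262, 30.8, 26.1 and 50.4 FPKM in the LowMg-HFD mice. LowMg-HFD replicate 1 lay within the NormMg-HFD range, so that the groups overlapped, while replicates 3, 4 and 5 lay far below it. In the NormMg-LFD mice it was at 5.25, 8.35, 19.1 and 9.28 FPKM and in the LowMg-LFD mice at 4.81, 13.3, 5.5, 19.9 and 12.5 FPKM. Between the HFD groups it differed by -2.33 ± 0.59 (SE; adjusted p = 0.0106, limma).

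Lgals3 (chr14:47367751-47386160, plus strand) had the highest FPKM of the 9 genes in the NormMg-HFD mice. It was at 1303, 771, 1501, 1187 and 933 FPKM in the NormMg-HFD mice and at 781, 644, 167, 169 and 219 FPKM in the LowMg-HFD mice, where replicate 1 again overlapped the lowest NormMg-HFD mouse. The LFD mice ranged from 86.3 to 120.5 FPKM with normal and from 77.6 to 118 FPKM with low Mg2+. The HFD groups differed by -1.81 ± 0.35 (SE; adjusted p = 0.00269, limma), and all LowMg-HFD mice remained above all LowMg-LFD mice.

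Cd9 and Cd63 encode tetraspanins, CD9 at the cell surface and CD63 in late endosomes, lysosomes and exosomes, and had the smallest falls. Cd9 (chr6:125460266-125494791, minus strand) ranged from 91.7 to 161 FPKM (median 135) in NormMg-HFD mice and from 42.0 to 85.8 FPKM (median 44.1) in LowMg-HFD mice, with a difference of -1.12 ± 0.24 (SE; adjusted p = 0.00449, limma). In LowMg-HFD replicates 3, 4 and 5, at 43.0, 44.1 and 42.0 FPKM, Cd9 was within the range of the NormMg-LFD mice, 34.1 to 67.1 FPKM. As with Spp1, the highest Cd9 in each LFD group was in the mouse high in epithelial markers, at 67.1 and 48.3 FPKM. Without these mice and LowMg-HFD replicate 4, the difference between the HFD groups was -1.04 (adjusted p = 0.0076, limma), and the part of epithelial cells in the LFD values was not tested.

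Cd63 (chr10:128900989-128912822, plus strand) ranged from 313 to 502 FPKM (median 378) in NormMg-HFD mice and from 184 to 307 FPKM (median 206) in LowMg-HFD mice. The groups did not overlap, and the difference was -0.73 ± 0.16 (SE; adjusted p = 0.0043, limma). The LFD mice, at 167 to 218 FPKM with normal and 161 to 257 FPKM with low Mg2+, overlapped the LowMg-HFD mice.

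**Figure D2:**
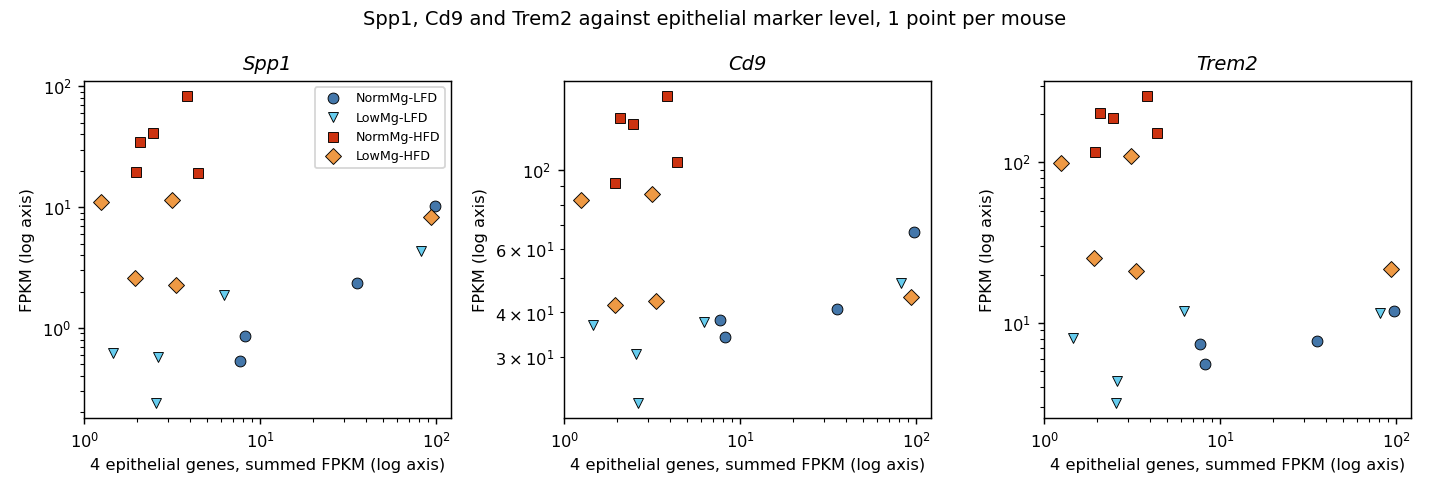
FPKM of Spp1, Cd9 and Trem2 in each mouse against the summed FPKM of 4 epithelial genes (all axes log), with 1 point per mouse. Of the 3 mice with sums of 81.5 to 97.7 FPKM, the LFD mice have the highest Spp1 of their groups, at 10.2 FPKM on the NormMg-LFD and 4.35 FPKM on the LowMg-LFD, and the NormMg-HFD mice lie highest at sums of 1.95 to 4.39 FPKM.

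Lipa and Acp5 encode lysosomal enzymes, the acid lipase that hydrolyses cholesteryl esters and triacylglycerol taken up by the cell, and an acid phosphatase. Lipa (chr19:34492318-34527474, minus strand) ranged from 127 to 189 FPKM in NormMg-HFD mice, and in LowMg-HFD mice it was at 125, 102, 40.0, 33.3 and 44.6 FPKM, just below that range in replicate 1. The LFD mice ranged from 19.3 to 23.6 FPKM with normal and from 19.9 to 31.3 FPKM with low Mg2+. Between the HFD groups Lipa differed by -1.40 ± 0.28 (SE; adjusted p = 0.00299, limma).

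Acp5 (chr9:22126727-22135711, minus strand) ran opposite to the 8 other genes, and which cells of the tissue made it was not tested. It was at 165, 166, 144, 154 and 189 FPKM in the NormMg-HFD mice and at 216, 209.6, 226, 216 and 219 FPKM in the LowMg-HFD mice. All LowMg-HFD mice lay above all NormMg-HFD mice, and they varied little among themselves, with a mean of 217 ± 5.91 FPKM (SD, n = 5). In the NormMg-LFD mice it was at 223, 247, 158 and 241 FPKM, the lowest being the mouse high in epithelial markers, and in the LowMg-LFD mice at 247, 336, 225, 303 and 289.9 FPKM. The difference between the HFD groups was 0.41 ± 0.12 (SE; adjusted p = 0.0216, limma). It was 0.42 (adjusted p = 0.0135, limma) without the 3 mice high in epithelial markers, and it no longer passed the threshold in 4 of 28 alternatives, with no filter (adjusted p = 0.0563, limma) and without NormMg-HFD replicate 3 (0.0664), NormMg-HFD replicate 4 (0.052) or LowMg-HFD replicate 3 (0.0503). The gene 6530413G14Rik overlaps Acp5 on the opposite strand, as Gm28809 and Gm26728 do for Cd9, and Gm42793 overlaps Spp1 on the same strand. Strand use in counting is not given in the sources used here, so that the reads of such pairs cannot be told apart.

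The question of whether low Mg2+ bears on these genes without a high fat diet is addressed by the LFD groups, where none of the 9 genes passed the test. Of all genes tested, 0% passed in limma, with 6.56% at an unadjusted p under 0.05, and of the 9 genes only Acp5 was under that value (unadjusted p = 0.00843, adjusted p = 0.74, limma). The difference between LowMg-LFD and NormMg-LFD mice was -0.15 ± 0.47 for Trem2, with a 95% confidence interval of -1.13 to 0.82, and 0.05 ± 0.63 for Gpnmb, with an interval of -1.26 to 1.37. The other values lay between -0.57 for Spp1 and 0.37 for Acp5. These intervals are wide for the low genes and hold differences of up to 1 log2 unit in either direction for Gpnmb. The groups overlapped in all 9 genes, and 1.79% of all genes tested did not overlap.

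With normal Mg2+, the high fat diet raised 5 of the 6 genes that passed the filter in every group and lowered the sixth, Acp5. Lgals3 was 11.3-fold higher in NormMg-HFD than in NormMg-LFD mice, a log2 difference of 3.50 ± 0.37 (SE), Lipa rose by 2.85 ± 0.29 and Tyrobp by 2.70 ± 0.30, and the tetraspanins by less, Cd9 by 1.49 ± 0.26 and Cd63 by 1.00 ± 0.17 (SE; largest adjusted p = 0.000155, limma). Much of the tissue differed by fat, since 37.4% of all genes tested passed, 24.6% higher and 12.8% lower, and 32.1% did not overlap between the groups, against 5 of these 6 genes. Gpnmb, Trem2 and Spp1 passed the filter only through HFD groups, where they were high. With no filter, under which 9.72% of the 24237 genes rose, they differed by 5.31 ± 0.66, 4.32 ± 0.49 and 3.43 ± 0.62 (SE; largest adjusted p = 0.000836, limma). Without the mice high in epithelial markers, of which NormMg-LFD replicate 4 enters here, the differences were 4.03 for Spp1, 5.62 for Gpnmb, 4.50 for Trem2, 1.69 for Cd9 and -0.54 for Acp5 (adjusted p = 0.00144, limma). With all mice Acp5 differed between these groups by -0.39 ± 0.13 (SE; adjusted p = 0.0201, limma) with overlapping groups. That call was lost without NormMg-LFD replicate 2 (adjusted p = 0.0516), replicate 3 (0.0812) or replicate 5 (0.0701), and without NormMg-HFD replicate 3 (0.0534), all in limma. Centred on medians, 49.9% of all calls were lower, and with quantile normalization 53.1%, against 34.2% as deposited.

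With low Mg2+, the high fat diet raised 5 of the 9 genes in the fit with no filter (largest adjusted p = 0.0246, limma), where 3.09% of the 24237 genes rose. By the values of the filtered fit, Gpnmb differed by 2.93 ± 0.59, Trem2 by 2.43 ± 0.44, Lgals3 by 1.63 ± 0.35, Tyrobp by 1.24 ± 0.28 and Lipa by 1.23 ± 0.28 between LowMg-HFD and LowMg-LFD mice (SE), and in these 5 genes the groups did not overlap. Gpnmb and Trem2 passed the filter through the HFD groups alone. Of all genes tested with the filter, 15.9% passed, 12.4% higher, and 9.3% did not overlap. Spp1, tested through its level in NormMg-HFD mice, which are not compared here, differed by 1.68 ± 0.56 (SE; adjusted p = 0.047, limma) and did not pass with no filter (adjusted p = 0.134, limma). Its call was lost in 15 of 28 alternatives with adjusted p values of up to 0.174. Among them were the fits without NormMg-LFD replicate 3, without LowMg-LFD replicate 1, 2, 3 or 5, without NormMg-HFD replicate 1 or 4 and without LowMg-HFD replicate 1, 2 or 4 (adjusted p = 0.0563 to 0.120, limma). Cd9, at 0.71 ± 0.24, had an adjusted p of 0.054 and passed without the 3 mice high in epithelial markers, at 0.91 (adjusted p = 0.0144, limma), as it did without NormMg-LFD replicate 4, LowMg-LFD replicate 4 or LowMg-HFD replicate 3, 4 or 5 singly (adjusted p = 0.0313 to 0.0407, limma). Cd63 differed by 0.22 ± 0.16 (95% confidence interval -0.11 to 0.55) and Acp5 by -0.35 ± 0.12 (95% confidence interval -0.60 to -0.10), and neither passed. Acp5 passed without NormMg-LFD replicate 4 (adjusted p = 0.0192) or LowMg-LFD replicate 3 (adjusted p = 0.0218, limma), and with all mice at -0.46 with median centring (adjusted p = 0.0296) and at -0.45 with quantile normalization (adjusted p = 0.0204, limma). Of all calls, 22% were lower as deposited, 47.2% with median centring and 49.1% with quantile normalization.

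By the group means of log2(FPKM + 1), the 8 genes other than Acp5 were highest in NormMg-HFD mice, followed by LowMg-HFD mice, with both LFD groups below. The LFD groups, neighbours in that order, did not pass the test in any of the 8 genes, and LowMg-HFD and LowMg-LFD mice did not in Cd63 and, with a 95% confidence interval that left out 0, in Cd9 (0.20 to 1.21). In Spp1 these 2 groups overlapped and did not pass with no filter (adjusted p = 0.134, limma). LowMg-HFD and NormMg-LFD mice were not compared by a test. For Acp5 the order was LowMg-LFD at 8.12 ± 0.23, LowMg-HFD at 7.77 ± 0.04, NormMg-LFD at 7.75 ± 0.30 and NormMg-HFD at 7.36 ± 0.15 (SD, n = 4 for NormMg-LFD and 5 for the others). Among the LowMg-HFD mice the SD was 1.73 for Gpnmb, 1.19 for Trem2, 1.08 for Lgals3, 0.95 for Spp1, 0.85 for Lipa and 0.79 for Tyrobp. In the NormMg-HFD mice these SDs were 0.42, 0.44, 0.38, 0.85, 0.26 and 0.37, so that Spp1 alone of these 6 varied to a like degree in both groups. LowMg-HFD replicates 1 and 2 were the highest 2 of their group in all 8 genes.

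**Figure D3:**
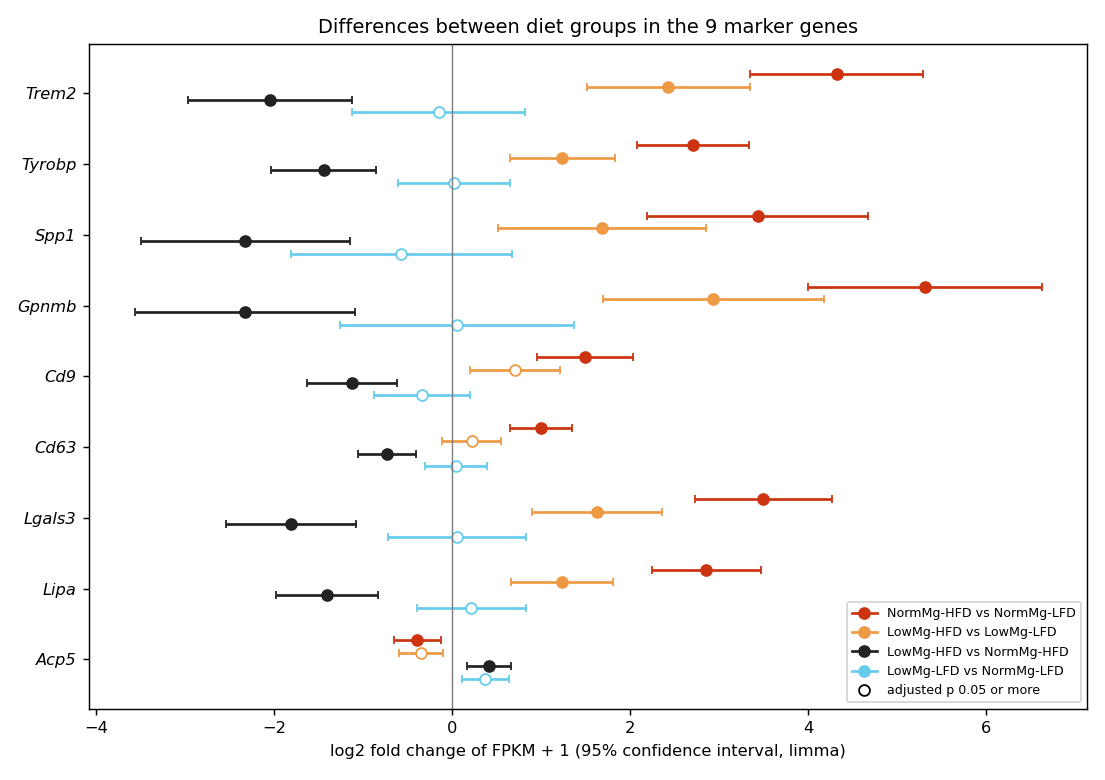
Log2 fold change of FPKM + 1 of each of the 9 genes in 4 comparisons of diet groups, with 95% confidence intervals from limma and open points where the adjusted p was 0.05 or more. The difference by fat in Gpnmb is 5.31 with normal and 2.93 with low Mg2+, the differences by Mg2+ are below 0 on the HFD in 8 genes, and those by Mg2+ on the LFD have intervals across 0 in 8 genes, all but Acp5.

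The comparisons share groups, and whether the effect of Mg2+ differed between the diets is tested by the interaction, taken as the Mg2+ difference of the HFD groups less that of the LFD groups. None of the 9 genes passed it in limma, and 1.25% of all genes tested did. At an unadjusted p under 0.05 stood 7 of the 8 genes other than Spp1, all but Acp5, against 20.4% of all genes tested. The interaction was -1.62 ± 0.40 for Lipa (SE; adjusted p = 0.0516), -1.87 ± 0.51 for Lgals3 (0.056), -1.46 ± 0.41 for Tyrobp (0.0638) and -1.89 ± 0.64 for Trem2 (0.104), all in limma. The count rested on single mice and on scaling. Without LowMg-HFD replicate 1 or without replicate 2, the LowMg-HFD mice with the highest values, 6 genes passed, where 5.34% and 5.83% of all genes tested did. Without NormMg-HFD replicate 5, the mouse lowest in Trem2 of its group, 4 passed, where 3.98% of all genes did. With median centring and with quantile normalization 3 passed, where 2.94% and 4.16% of all genes did, and without LowMg-LFD replicate 1 only Lipa did, where 2.5% of all genes did.

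Levels of the genes that macrophages of most states express moved the same way. The reference was the mean log2(FPKM + 1) of Adgre1 (F4/80), Csf1r, the receptor of the growth factor M-CSF, the efferocytosis receptor Mertk, the Fc receptor Fcgr1, the lipopolysaccharide co-receptor Cd14 and the lysozyme Lyz2. It was 6.11 ± 0.33 (SD, n = 5) in NormMg-HFD, 5.12 ± 0.47 (SD, n = 5) in LowMg-HFD, 4.57 ± 0.13 (SD, n = 4) in NormMg-LFD and 4.66 ± 0.33 (SD, n = 5) in LowMg-LFD mice. Between the HFD groups, where 12.9% of all genes tested fell, 4 of the 5 genes other than Fcgr1 fell, Adgre1 by 1.62 ± 0.27, Cd14 by 1.17 ± 0.28, Lyz2 by 1.04 ± 0.20 and Csf1r by 0.77 ± 0.16 on the log2 scale (SE; largest adjusted p = 0.00748, limma). Mertk differed by 0.13 ± 0.15 (adjusted p = 0.591, limma) between the HFD groups and by -0.33 ± 0.16 between the NormMg groups (adjusted p = 0.105, limma). Fcgr1 passed the filter through the NormMg-HFD mice alone, and with no filter it differed by -1.46 ± 0.37 (SE; adjusted p = 0.0272, limma). Reads of Lyz2 may be shared with its close paralog Lyz1.

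Set against this reference in each mouse, Trem2 was at 1.31, 1.25, 1.502, 1.55 and 1.19 log2 units in the NormMg-HFD mice and at 1.14, 1.11, -0.44, -0.0015 and -0.29 log2 units in the LowMg-HFD mice. Gpnmb was at 2.73, 2.32, 2.59, 2.78 and 2.53 log2 units and at 2.76, 2.50, 0.09, 0.25 and 0.68 log2 units in these groups. In both genes LowMg-HFD replicates 1 and 2 lay at or near the NormMg-HFD mice and replicates 3, 4 and 5 lay below them by more than the NormMg-HFD mice spread. The LFD mice were lower still, from -1.88 to -1.04 for Trem2 with normal and from -2.43 to -1.19 with low Mg2+.

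After the reference was subtracted, LowMg-HFD mice had lower levels of 5 of the 8 genes other than Spp1 than NormMg-HFD mice, where 0.648% of all genes tested were lower and 90.2% higher, a background that the falling reference sets. The differences were -1.34 ± 0.39 for Gpnmb (SE; adjusted p = 0.00305), -1.05 ± 0.28 for Trem2 (0.00171) and -0.82 ± 0.24 for Lgals3 (0.00277), all in limma, and these 3 passed in all 28 alternatives. Spp1, which passed the filter through the NormMg-HFD mice alone, was at -1.33 with no filter (adjusted p = 0.00994, limma), where 0.248% of all genes were lower. Tyrobp, at -0.45 ± 0.19 (adjusted p = 0.0249, limma), lost the call in 5 of them, and Lipa, at -0.41 ± 0.20 (adjusted p = 0.0488, limma), in 22, which include leaving out any 1 mouse other than LowMg-LFD replicate 1, NormMg-HFD replicate 3 and LowMg-HFD replicates 1 and 2 (adjusted p = 0.051 to 0.138, limma). With Adgre1 and Csf1r alone as the reference, Tyrobp was at -0.24 (adjusted p = 0.209, limma) and Lipa at -0.21 (adjusted p = 0.289, limma). Without LowMg-HFD replicate 3, Tyrobp was at -0.36 (0.0824) and Lipa at -0.33 (0.138), and without replicate 5 they were at -0.38 (0.0766) and -0.34 (0.132).

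Cd9 and Cd63, at -0.13 ± 0.19 (adjusted p = 0.487) and 0.26 ± 0.18 (adjusted p = 0.168, limma), did not pass relative to the reference. With Adgre1 and Csf1r alone as the reference, Cd63 was higher, at 0.47 (adjusted p = 0.0261, limma). Acp5 was higher relative to it by 1.40 ± 0.25 (SE; adjusted p = 0.000122, limma), as were most genes of the tissue. Of the pan-macrophage genes, Adgre1 alone fell by 1.62, more than Tyrobp, Lipa, Cd9 and Cd63 and less than Trem2, Spp1, Gpnmb and Lgals3 by the fitted values. These differences between single genes were not tested.

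**Figure D4:**
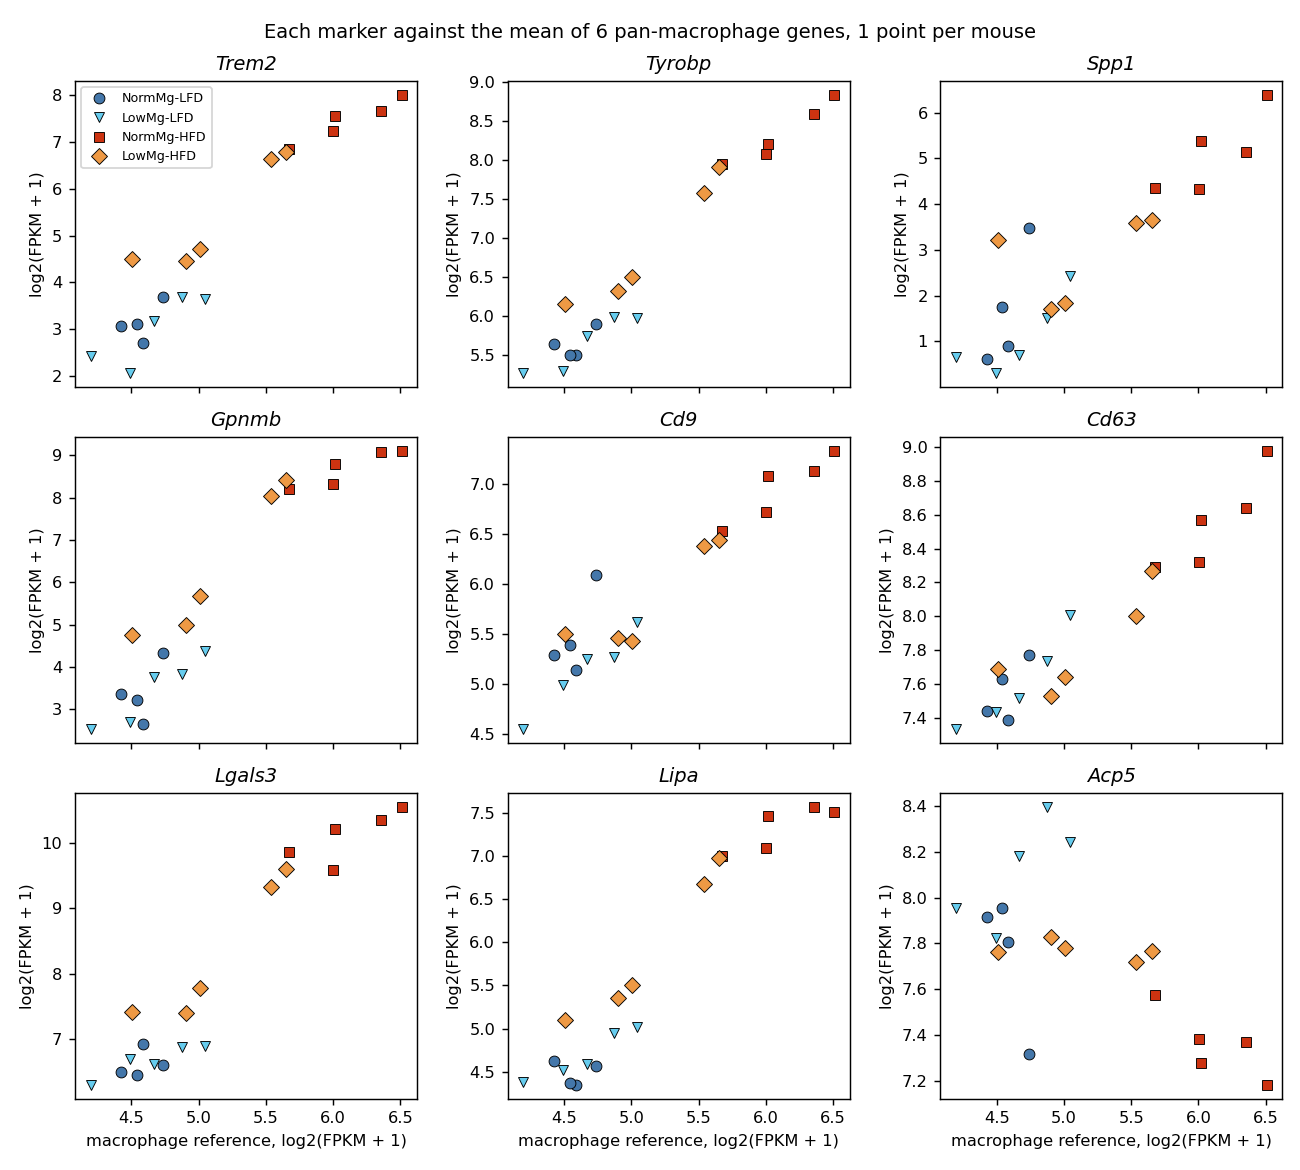
Log2(FPKM + 1) of each of the 9 genes against the mean log2(FPKM + 1) of 6 pan-macrophage genes, with 1 point per mouse and colour and shape for the diet group. LowMg-HFD mice 1 and 2, with a reference of 5.65 and 5.54, lie next to NormMg-HFD replicate 5 at 5.67, and the other LowMg-HFD mice, at 4.51 to 5.01, lie within the reference range of the LFD mice, 4.20 to 5.05, but above them in Trem2, Tyrobp, Gpnmb, Lgals3 and Lipa.

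With normal Mg2+, fat raised 6 of the 9 genes relative to the reference in the fit with no filter, where 0.64% of all genes rose. The differences with the filter were 3.77 ± 0.41 for Gpnmb, 2.78 ± 0.30 for Trem2, 1.96 ± 0.25 for Lgals3, 1.90 ± 0.45 for Spp1, 1.32 ± 0.21 for Lipa and 1.17 ± 0.20 for Tyrobp (SE). For Lgals3, Lipa and Tyrobp, which passed the filter in every group, the largest adjusted p with the filter was 6.06e-06 (limma). Of all genes tested with the filter, 1.72% were higher and 93.1% lower on this scale. Cd9 was at -0.05 ± 0.20 (adjusted p = 0.808), and Cd63 at -0.54 ± 0.19 (adjusted p = 0.00891) and Acp5 at -1.93 ± 0.26 (adjusted p = 5.57e-07, limma) were lower. With low Mg2+, 5 genes were higher relative to the reference with no filter (largest adjusted p = 0.0468, limma), where 0.215% of all genes were, Gpnmb by 2.47 ± 0.39, Trem2 by 1.96 ± 0.28, Lgals3 by 1.16 ± 0.24, Tyrobp by 0.77 ± 0.19 and Lipa by 0.77 ± 0.20 (SE) with the filter, where 1.07% of all genes tested were higher. In the interaction relative to the reference, Gpnmb was at -1.31 ± 0.57 (adjusted p = 0.0372) and Lgals3 at -0.80 ± 0.35 (adjusted p = 0.0364, limma), lower as were 0.264% of all genes tested, and Acp5, at 1.11 ± 0.36 (adjusted p = 0.01, limma), was higher as were 83.6%, while Trem2, at -0.82 ± 0.41 (adjusted p = 0.0667, limma), did not pass.

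Other genes known from lipid-associated macrophages behaved alike between the HFD groups. Of 16 such genes 13 passed the filter in another group than NormMg-HFD alone and 12 of these fell, where 12.9% of all genes tested fell, with a median difference over the 13 of -0.88 against -0.04 over all genes tested. The exception was Fabp5, a fatty acid binding protein named after its value was seen (-0.65, adjusted p = 0.0692, limma). With no filter 14 of the 16 fell, where 3.85% of the 24237 genes did. The macrophage elastase Mmp12 by -2.002 ± 0.57, cathepsin K (Ctsk) by -1.62 ± 0.36 and the scavenger receptor Cd68 by -1.61 ± 0.34 (SE; largest adjusted p = 0.0195, limma), of which Mmp12 did not pass with no filter (adjusted p = 0.0636, limma). Atp6v0d2, a V-ATPase subunit, was, like Cd300lb and Nceh1, tested only through its level in the NormMg-HFD mice, and with no filter it differed by -2.28 ± 0.52 (SE; adjusted p = 0.0167, limma). The summed level of the 16 genes was 6225 to 9215 FPKM in NormMg-HFD and 2842 to 6053 FPKM in LowMg-HFD mice, which did not overlap. With fat at normal Mg2+ the 11 that passed the filter in an LFD group all rose, with a median of 1.60, where 24.6% of all genes tested rose, and with no filter all 16 did, where 9.72% of the 24237 genes rose. Of 6 lipid-handling genes that adipocytes share, 2 fell, the lipid droplet protein Plin2 by 1.09 ± 0.22 and the lysosomal membrane protein Lamp2 by 0.37 ± 0.09 (SE; largest adjusted p = 0.00988, limma), while Lpl (-0.09), Cd36 (-0.05), Fabp4 (0.26) and Apoe (0.38) did not pass.

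Downstream of TREM2 and TYROBP, the kinase SYK is recruited to the adaptor and passes the signal to further kinases, adaptors and lipid enzymes. Of 14 genes of this signalling and of its shedding, 11 passed the filter, of which Vav1, Btk and Pik3cd did so only through their level in the NormMg-HFD mice. Of the other 8, 5 fell in LowMg-HFD compared with NormMg-HFD mice, with a median over the 8 of -0.60, where 12.9% of all genes tested fell. With no filter 9 of the 14 fell, where 3.85% of the 24237 genes did. Syk differed by -1.15 ± 0.27 and the phosphatase Ptpn6 by -0.94 ± 0.28 (SE; largest adjusted p = 0.0255, limma), and Ptpn6 did not pass with no filter (adjusted p = 0.077, limma). With no filter the exchange factor Vav1 differed by -1.25 ± 0.27 and the kinase Btk by -0.95 ± 0.22 (SE; largest adjusted p = 0.0181, limma). The 3 of the 8 that did not pass, named after their values were seen, were the sheddase Adam10 (-0.32), the lipid phosphatase Inpp5d (-0.60) and the kinase Fyn (-0.29). With fat at normal Mg2+ the 7 that passed the filter in an LFD group rose, where 24.6% of all genes tested rose, and with no filter 13 of the 14 did, with a median over the 14 of 1.27, where 9.72% of the 24237 genes rose. Many of them are made by leukocytes of other kinds as well. Of 7 other TREM family or TYROBP-coupled receptors only Cd300c2 passed the filter, through the NormMg-HFD mice alone, and with no filter it was the 1 of the 7 that fell, at -1.81 ± 0.38 (SE; adjusted p = 0.0121, limma).

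Between the HFD groups, where 12.9% of all genes tested fell, 4 of 7 receptors of osteopontin were tested, and Cd44 fell by 1.53 ± 0.29 (SE; adjusted p = 0.00275, limma), whereas the integrin subunits Itgav (-0.29), Itgb5 (-0.26) and Itgb1 (-0.21) did not pass. The MiT/TFE factors control lysosomal genes, Gpnmb among them. Of 8 genes for these factors and their regulators 5 were tested, Fnip1 through the NormMg-HFD mice alone, and 2 of the other 4 fell, Tfeb by 0.64 ± 0.16 and Tfe3 by 0.38 ± 0.12 (SE; largest adjusted p = 0.0388, limma), of which only Tfeb passed with no filter, while folliculin (Flcn, -0.20) and Rragc (-0.02) did not pass. Of the osteoclast genes apart from Acp5, only Tnfrsf11a, the receptor RANK, was tested, through its level in the NormMg-HFD mice alone, and with no filter it differed by -1.10 ± 0.26 (SE; adjusted p = 0.0201, limma). Of those that did not pass the filter, named after their values were seen, the fusion protein gene Dcstamp was lower in LowMg-HFD mice, at 0.26 to 2.85 FPKM against 3.11 to 6.88 FPKM, and the gelatinase Mmp9 was higher like Acp5, at 3.6 to 5.65 FPKM against 0.64 to 1.97 FPKM, each without overlap.

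Markers of other cell types moved as well. Adipocyte markers summed to 4788 to 7302 FPKM in NormMg-HFD and to 7564 to 10794 FPKM in LowMg-HFD mice, and 4 of 7 rose, where 5.58% of all genes tested rose and 12.9% fell, complement factor D (Cfd) by 2.12 ± 0.32, Adipoq by 0.69 ± 0.17, Lipe by 0.65 ± 0.14 and Plin1 by 0.45 ± 0.12 (SE; largest adjusted p = 0.0116, limma), with none lower. The part of the adipocyte share of the RNA in the fall of the 8 genes and in the rise of Acp5 was not tested. Among markers of resident macrophages, 8 of 9 were tested, and Folr2 (-0.82), Mrc1 (-0.72) and Clec10a (-0.53) fell while Cd209f (0.80) rose (largest adjusted p = 0.0437, limma). The median over the 8 was 0.13, against -1.44 over the 9 lipid-associated genes, which hold Spp1, a gene that the filter favoured in this comparison. The fibroblast gene Col1a1 fell by 1.22 ± 0.19 (adjusted p = 0.00178) and the endothelial gene Kdr rose by 0.54 ± 0.14 (adjusted p = 0.0103, limma), each the 1 of its list (5 and 4 tested) that passed. No gene of the dendritic, T and NK, B or epithelial lists passed the filter on low values.

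**Figure D5:**
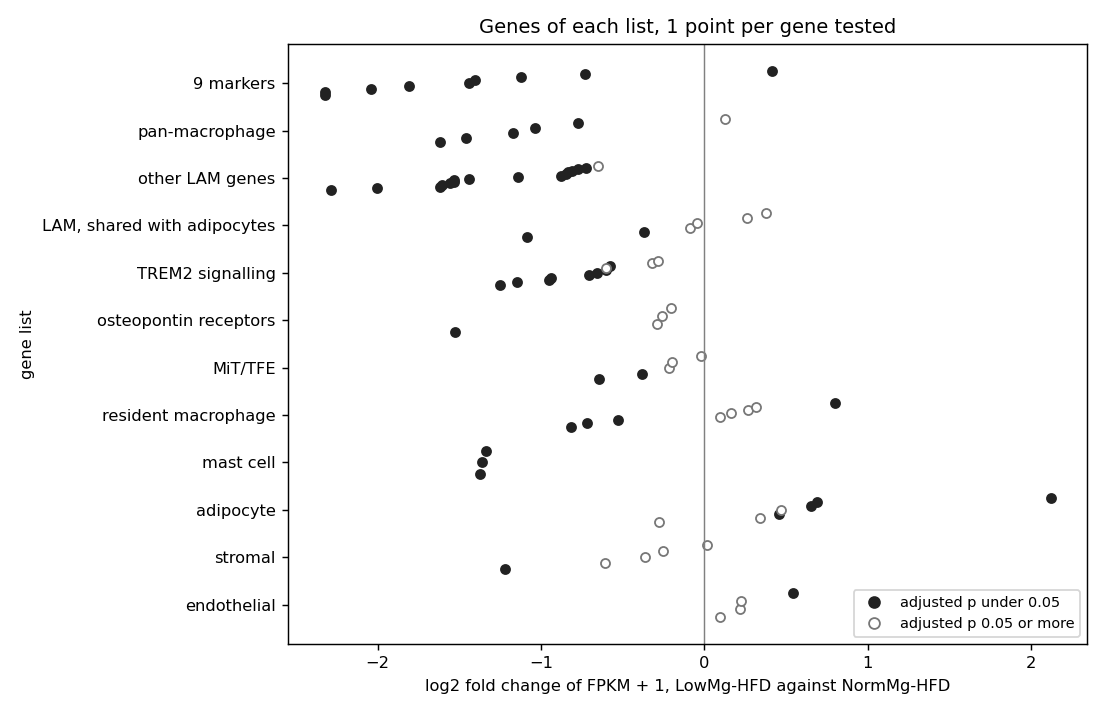
Log2 fold change of FPKM + 1 between LowMg-HFD and NormMg-HFD mice for each tested gene of 12 lists, with filled points where the adjusted p in limma was under 0.05, genes that passed the filter through the NormMg-HFD mice alone included. The other lipid-associated macrophage (LAM) genes lie between -2.28 and -0.65, the adipocyte markers between -0.28 and 2.12 and the resident macrophage markers on both sides of 0, between -0.82 and 0.80.

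The 9 genes were also compared by the shape of their profile over the 19 mice, as the root mean square difference between standardised log2(FPKM + 1) values, which is 0 for the same shape. This is a description, and the mice share their diet groups. Trem2 and Gpnmb were the closest pair of the 9 genes, at 0.113, and Tyrobp and Lipa followed at 0.123. Among the 100 genes nearest to each, Trem2, Tyrobp, Gpnmb, Lgals3 and Lipa had 4 of the 8 others, Cd9 and Cd63 had 3, Spp1 had 2 and Acp5 none. Acp5 stood at 1.83 to 1.89 from each of the others.

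The 10 genes nearest to Trem2 outside the 9 were Evl (0.085), Slc37a2 (0.118), Cd68 (0.119), Pltp (0.122), Nceh1 (0.123), Pik3ap1 (0.131), Mpeg1 (0.133), Cd300c2 (0.141), Ctss (0.142) and Degs2 (0.143). Evl, an actin regulator, was nearer to Trem2 than any of the 8 other markers. Nceh1, a cholesteryl ester hydrolase, and the cathepsin Ctss belong to the other lipid-associated macrophage genes above. The genes nearest to Acp5 were Pnpla2, which encodes adipose triacylglycerol lipase, at 0.347, Ppm1m at 0.348 and Fah at 0.410, genes named after their values were seen.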

How the data were processed

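RNA of eWAT from 19 male mice was sequenced by the study as 50-base single-end reads. They were aligned with HISAT and Bowtie2 to the mouse transcriptome (GRCm38/mm10) and quantified with RSEM 1.2.31. The deposited table holds FPKM per gene, made by the authors, and a second deposited table gives total read counts and percent mapped, which were used for depth alone. Groups came from the labels. After 12 lines of wrapped annotation were dropped, 26 symbols stored as dates were put back and 1 gene with a cell that was no number was left out, leaving 24237 genes.

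FPKM, which are not counts, were analysed as log2(FPKM + 1) with limma 3.58.1 in R 4.3.3, with an intensity trend, 1 model over the 4 groups and Benjamini-Hochberg adjustment over the 8336 genes with a mean over 8 FPKM and at least 4 mice over 8 FPKM in any 1 group. Genes that passed only on the high side of a comparison were read from the fit with no filter, a choice made for the further lists after the data were seen. The code was tested on simulated data. The contrasts were LowMg-HFD with NormMg-HFD, LowMg-LFD with NormMg-LFD, each HFD with its LFD group, and the interaction. Relative values were obtained by subtracting the mean of the 6 reference genes in each mouse before the same fit, which left out those genes (8330 tested). Groups were said not to overlap when every mouse of 1 lay beyond every mouse of the other.

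Genes named by rule were the 9 markers, the 6 reference genes, up to 4 genes of each further list (those past the threshold with the largest difference, then those with the highest mean FPKM) and the 10 genes nearest to Trem2. Beyond this rule, all 6 genes shared with adipocytes were named, as were genes that passed the filter through the NormMg-HFD mice alone. Genes said to be named after their values were seen also lie outside it. The 9 genes and all lists were chosen with earlier results of these data known. Alternatives were the pseudocount, the filter, median centring, quantile normalization, no intensity trend, a replicate block, a fit of the compared groups alone, another reference and leaving out each mouse. Each library is 1 mouse. Tables were prepared with Python 3.11.15, pandas 2.3.3 and numpy 2.4.6, and plots with matplotlib 3.10.9.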

Additional observations from a re-analysis of the deposited data

How the results depend on the processing

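The number of the 9 genes that passed between the HFD groups was 8 or 9 in all 28 alternatives, that between the NormMg groups 8 or 9, counts that hold Spp1 and, for fat, Trem2 and Gpnmb, which the filter favoured, that between the LFD groups 0, and that between the LowMg groups 5 to 8. The interaction moved most, from 0 to 3 with median centring and to 3 with quantile normalization, and to between 0 and 6 when each mouse was left out in turn. Relative to the reference, 5 to 7 genes passed between the HFD groups, the only comparison for which the alternatives were run on relative values. Single genes reversed only where they did not pass. Between the LFD groups these were Trem2 with quantile normalization (0.0097), Lgals3 without the 3 mice high in epithelial markers (-0.000597), an alternative chosen after seeing the data, and, with mice left out, Trem2 (-0.323 to 0.081), Tyrobp (-0.0605 to 0.120), Spp1 (-0.926 to 0.0313), Gpnmb (-0.195 to 0.366) and Cd63 (-0.0517 to 0.120). The interaction of Acp5 ranged from -0.0336 to 0.186 with mice left out, and Cd9 was at 0.0729 relative to Adgre1 and Csf1r. The causes were not tested.

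The labels number the mice within each diet, but same-numbered mice did not all deviate together. Correlations over genes ran from -0.156 to 0.169 in the HFD groups and from -0.143 to 0.339 in the LFD groups, where replicate 4, a mouse high in epithelial markers in both, had the highest, and the numbers were not taken to pair the mice. With the replicate number as a block, 9 genes passed between the HFD groups, 0 between the LFD groups, 9 between the NormMg groups, 6 between the LowMg groups and 0 in the interaction, and the LFD differences of Tyrobp (-0.0511), Gpnmb (-0.0722) and Lgals3 (-0.0386) turned sign. The block was run for the 9 genes in each contrast and, relative to the reference, between the HFD groups alone. Of these calls it ended only that of Lipa relative to the reference (adjusted p = 0.0681, limma). With 4 or 5 mice per group and FPKM alone, no counting error could be given, and Gpnmb had the largest SE of the 9 genes in each comparison (0.59 to 0.86), followed by Spp1.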

Other observations

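Among mast cell genes, the chymases Mcpt4 and Cma1 and the tryptase Tpsb2 were at LowMg-HFD minus NormMg-HFD differences of -1.38 ± 0.31, -1.36 ± 0.30 and -1.34 ± 0.28 on the log2(FPKM + 1) scale (SE), but the groups overlapped and all 3 passed the filter only through the NormMg-HFD mice, where they were high. With no filter their largest adjusted p was 0.0207 (limma), where 3.85% of the 24237 genes were lower. Of the 2 mast cell genes not tested, named after their values were seen, the receptor Kit was higher in LowMg-HFD mice, at 5.01 to 7.19 FPKM against 3.15 to 4.72 FPKM, and the carboxypeptidase Cpa3 was at 1.33 to 5.13 FPKM against 3.25 to 12.4 FPKM. The neutrophil gene S100a8, the 1 of 6 that passed the filter, was at -1.83 ± 0.40 (SE) with the same limit (adjusted p = 0.0181 with no filter, limma).

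Of 7 monocyte genes 2 were tested, Plac8 through the NormMg-HFD mice alone, and neither passed between the HFD groups, Plac8 at -0.83 ± 0.33 (adjusted p = 0.0832) and the chemokine receptor Ccr2 at -0.40 ± 0.24 (adjusted p = 0.25, limma). The mesothelial gene Krt19 was at 1.03 ± 0.42 (adjusted p = 0.0929) and the pancreatic gene Cela1 at -0.32 ± 0.49 (adjusted p = 0.696, limma).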
